A study of Mus musculus with 8 samples.

Results

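The genes described here are 27 of the 54427 listed in the deposited table, chosen by symbol. They cover the enzymes that build cholesterol from acetyl-CoA, the sensing machinery of the transcription factor SREBP2, and the proteins that move, store or export the product. All 27 symbols were found, each on a row of its own. The cells were primary acinar cells, the enzyme-secreting cells of the exocrine pancreas, from wild-type (WT) mice, and RNA was sequenced in bulk. The 4 AP_OCA libraries carry injury by cholecystokinin octapeptide (CCK, 1 µM for 6 h) together with OCA. OCA commonly stands for obeticholic acid, a drug that activates FXR, a nuclear receptor for bile acids. The 4 AP libraries carry the CCK injury alone, so every library was CCK-treated and none shows resting cells. The treatment text names an OCA concentration of 2.5 µM, also speaks of increasing concentrations, and is identical for both groups, so the absence of OCA from AP rests on the sample titles. The labels do not say whether replicates came from separate animals or cell preparations, nor the age of the mice.

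Cholesterol is made in the endoplasmic reticulum through mevalonate, isoprenoid pyrophosphates, squalene and lanosterol. When membrane sterol is low, SCAP escorts SREBP2 (gene Srebf2) to the Golgi, where proteases release its active part, which turns on most genes of the route. When sterol is high, INSIG proteins hold SCAP back. Acinar cells devote much of their membrane to secretion, and their zymogen granule membranes are rich in cholesterol. FXR is best known for lowering bile acid synthesis from cholesterol in liver, and Soat and ABC transporter proteins dispose of surplus sterol.

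Promoters are shown for 4 of these genes: Hmgcs1, the member whose promoter window held the sterol regulatory element searched for, and Srebf2, Msmo1 and Sc5d, the members farthest from no difference between groups when AP_OCA replicate 2 was set apart. The sequences are from RefSeq (GRCm38.p6, the coordinates of mm10) and run from 250 bases before to 50 bases after the annotated start, in the direction of transcription. Capitals mark every match, on either strand, to the sterol regulatory element (TCACNCCAC), the CCAAT box (CCAAT) and the Sp1 box (GGGCGG), and no matches overlapped in these 4 windows. The windows are chr13:119690101-119690400 (plus strand) for Hmgcs1, chr15:82147019-82147318 (plus strand) for Srebf2, chr8:64733529-64733828 (minus strand) for Msmo1 and chr9:42264251-42264550 (minus strand) for Sc5d.
Hmgcs1: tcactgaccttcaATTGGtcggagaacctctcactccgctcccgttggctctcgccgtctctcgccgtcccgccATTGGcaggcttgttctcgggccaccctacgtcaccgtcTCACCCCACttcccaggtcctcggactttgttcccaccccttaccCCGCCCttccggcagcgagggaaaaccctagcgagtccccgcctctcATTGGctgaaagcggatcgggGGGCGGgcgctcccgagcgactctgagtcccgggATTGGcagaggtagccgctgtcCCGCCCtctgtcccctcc
Srebf2: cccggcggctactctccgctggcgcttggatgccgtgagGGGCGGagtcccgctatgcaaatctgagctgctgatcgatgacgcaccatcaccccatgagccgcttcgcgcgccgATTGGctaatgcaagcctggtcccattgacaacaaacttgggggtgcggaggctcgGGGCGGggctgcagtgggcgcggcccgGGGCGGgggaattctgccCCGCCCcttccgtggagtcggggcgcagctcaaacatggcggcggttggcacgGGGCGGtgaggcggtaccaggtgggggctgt
Msmo1: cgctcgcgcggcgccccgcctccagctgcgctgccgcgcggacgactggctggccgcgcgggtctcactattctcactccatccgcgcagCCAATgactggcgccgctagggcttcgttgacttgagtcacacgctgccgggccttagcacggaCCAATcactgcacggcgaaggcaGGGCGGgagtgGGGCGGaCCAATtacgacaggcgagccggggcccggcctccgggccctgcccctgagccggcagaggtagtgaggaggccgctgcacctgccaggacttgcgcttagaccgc
Sc5d: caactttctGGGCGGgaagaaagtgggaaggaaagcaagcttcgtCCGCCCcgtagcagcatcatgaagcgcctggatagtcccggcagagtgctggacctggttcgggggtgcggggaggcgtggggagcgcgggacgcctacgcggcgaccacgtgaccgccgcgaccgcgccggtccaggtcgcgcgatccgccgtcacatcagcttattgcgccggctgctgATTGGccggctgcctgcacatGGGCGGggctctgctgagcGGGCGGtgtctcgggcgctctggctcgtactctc
The Hmgcs1 match to the sterol regulatory element began at -137 from the start. Hmgcs1 also held 4 CCAAT boxes and 3 Sp1 boxes, Srebf2 1 and 5, Msmo1 3 and 2, and Sc5d 1 and 4. RefSeq windows were found for 23 of the 27 genes, 29 windows in all, some genes having several starts. No window was found for Fdps, Fdft1, Sqle and Stard4. The sterol element was in 1 of the 29 (3.45%, against 1.24% of 32851 windows of all genes), a CCAAT box in 20 (69.0%, against 37.4%) and an Sp1 box in 24 (82.8%, against 35.7%). The direct-repeat LXR element was in 0 of 29, and in 0.0152% of all windows. These are letter matches to a fixed string for each motif, so sites that differ from it were not counted. They say nothing of whether a factor was bound.

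The values are on a scale written CPM, the deposited values taken off their log scale and scaled to a sum of 1000000 per library. Quantile normalisation by the authors gives each library the same distribution, so a CPM value is a position in that shared distribution rather than a share of reads, and total read counts are unknown. Low values fall on discrete steps, like counts, and 9 to 14 steps lay below 1 CPM in 7 libraries and 65 in AP_OCA replicate 2. That library stood apart. Its correlation with the other 7 had a median of 0.607 over all genes tested, which are not independent replicates, against medians of 0.899 to 0.967 for each other library. The acinar enzyme genes Ctrb1 and Cela1 were abundant in all 8 libraries (Ctrb1 at the shared maximum of 116500 CPM), but the acinar transcription factor gene Ptf1a stood at 1.12 CPM in AP_OCA replicate 2, against 17.4 to 34.5 in the others. In the same library each of 10 lymphocyte markers, and 8 of the 12 for macrophages and myeloid cells, exceeded every other library by more than 2-fold on the CPM + 1 scale, with none at 0. The lymphocyte markers summed to 3430 CPM, against 0.499 to 32.5 in the other 7 libraries, where 3 to 8 of them were at 0. The macrophage and myeloid markers summed to 1119 CPM, against 106 to 199.7, and the 6 adipocyte markers to 444.1, against 12.2 to 86.6. The myeloid marker Cd14 went the other way, at 27.6 CPM against 43.7 to 61.6. Endothelial (163.6 CPM) and stellate and fibroblast (387.3) marker sums were also highest there. Duct markers summed to 22.2 CPM, against 135.8 to 312.5, and islet markers to 8.95, against 502.1 to 2132. AP_OCA replicate 2 is therefore given apart from AP_OCA replicates 1, 3 and 4. Counts of genes that passed are given both with it (8 libraries) and without it (7 libraries). Fold changes of single genes are without it unless 8 libraries are named, and for some genes only that value is given.

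No gene of the set passed the test between AP_OCA and AP, with or without AP_OCA replicate 2. The nearest was Srebf2, the SREBP2 gene itself, which averaged 27.4 ± 8.23 CPM in AP_OCA replicates 1, 3 and 4 and 47.4 ± 1.62 CPM in AP (SD, n = 3 and 4). The other genes of the set did not share a direction. The methylsterol oxidase gene Msmo1 and the desaturase gene Sc5d had higher values in those 3 AP_OCA libraries than in every AP library, while the mevalonate decarboxylase gene Mvd and the retention factor gene Insig2 had lower values in all 3. Hmgcs1, Cyp51, Ebp and Abca1 had log2 fold changes within 0.05 of 0 without AP_OCA replicate 2, and of -0.19, -0.14, 0.26 and 0.61 with it.

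The test was limma on log2(CPM + 1) over the genes that averaged 1 CPM or more, with Benjamini-Hochberg adjustment over all of them, and fold changes are AP_OCA over AP on that log2 scale, which understates the change of low genes. Without AP_OCA replicate 2, 22 of the 27 genes had enough signal to be tested and 0 passed, where 2.44% of all 10894 tested genes passed (0.854% higher and 1.59% lower in AP_OCA). At an unadjusted p under 0.05 there were 5 of 22 (22.7%), 2 higher and 3 lower in AP_OCA, where the share of all tested genes was 25.7% (11.8% higher and 13.9% lower). Groups did not overlap for 6 of 22 (27.3%), 2 higher and 4 lower, where the share of all was 23.2% (11.1% higher and 12.1% lower). These shares lie near those of all genes. The fold change was positive for 9 of the 22, against 50% of all tested genes. The median log2 fold change of the 22 was -0.14, against 0.00 over all tested genes, with a range from -0.81 to 0.66. With all 8 libraries, 23 were tested and 0 passed, where 0% of all 11311 genes passed. The unadjusted p was then under 0.05 for 2 of 23, both lower in AP_OCA, where the share of all was 16.2% (7.31% higher and 8.87% lower). Groups did not overlap for 3 of 23, all lower in AP_OCA, where the share of all was 15.3% (6.75% higher and 8.57% lower). The fold change was positive for 9 of the 23, against 49.1% of all. Over all 8 libraries the median was again -0.14, against -0.01 over all genes.

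**Figure D1:**
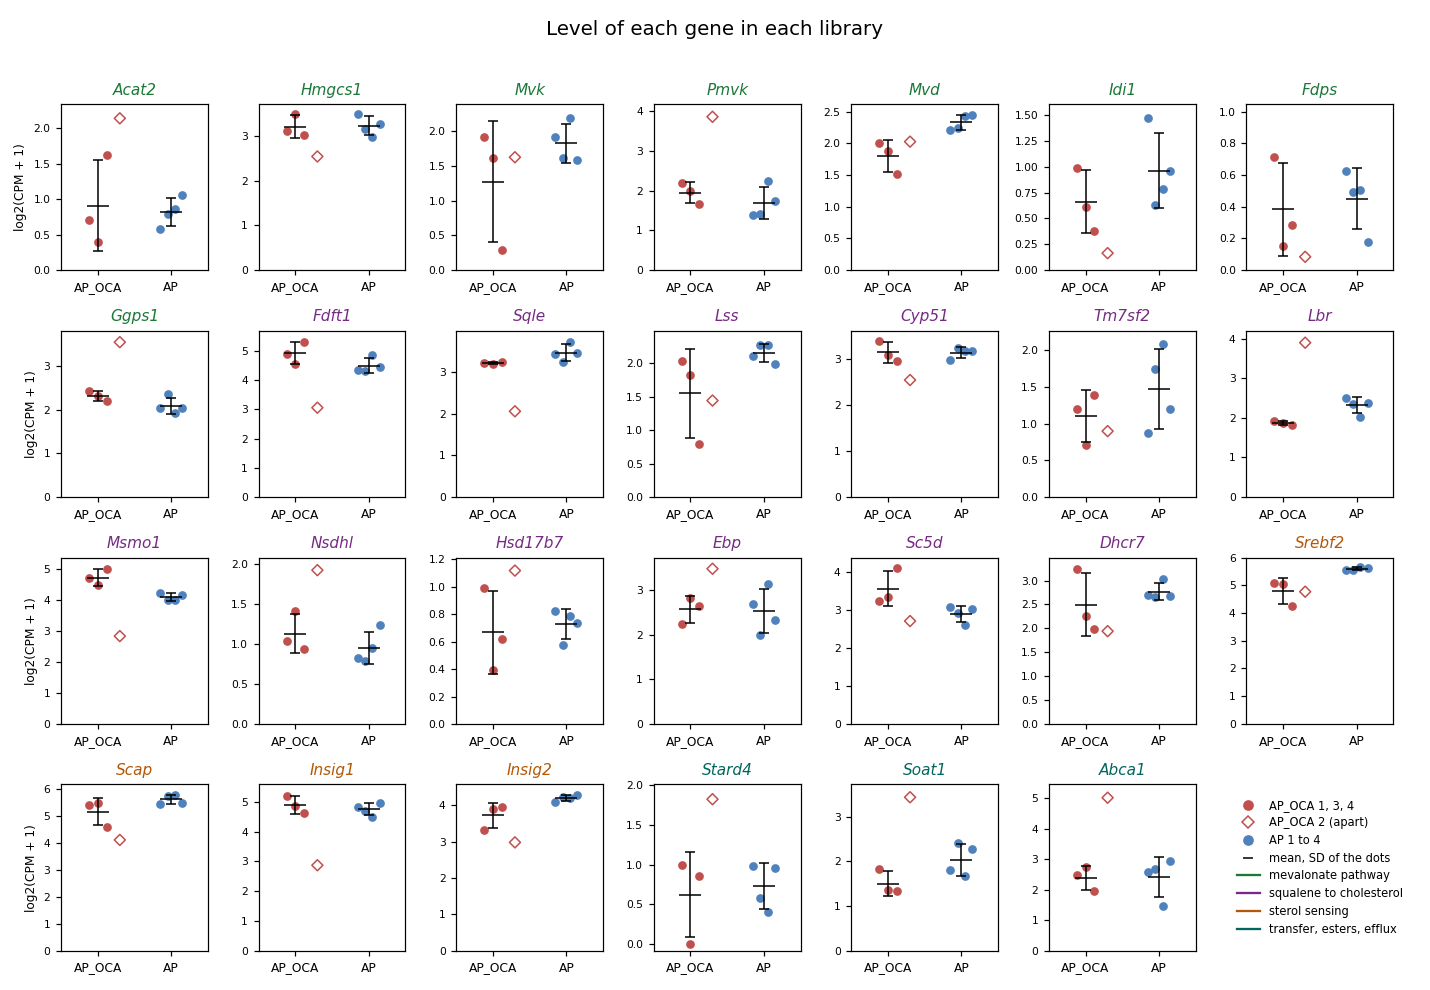
Level of each of the 27 genes as log2(CPM + 1), with AP_OCA left of AP in each panel. Dots are libraries, the open diamond is AP_OCA replicate 2, bars are the mean and SD of the dots, and panel titles are coloured by role. In the Srebf2 panel all AP_OCA points lie below the 4 AP points, and in the Msmo1 and Sc5d panels the 3 AP_OCA dots lie above them, with the open diamond below for Msmo1.

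The sensing genes are described first. Srebf2 (chromosome 15, 82147181 to 82205379, plus strand, mm10) stood at 32.6, 31.7 and 17.9 CPM in AP_OCA replicates 1, 3 and 4 and at 26.3 in replicate 2, against 45.7, 46.3, 49.0 and 48.4 CPM in AP replicates 1 to 4. Every AP_OCA library, replicate 2 included, lay below every AP library, and the AP libraries lay close together. The log2 fold change was -0.81 ± 0.21 (SE, adjusted p = 0.0521 by limma) without AP_OCA replicate 2 and -0.82 ± 0.23 (adjusted p = 0.260) with it. Over 18 alternatives without AP_OCA replicate 2, the fold change ran from -0.96 to -0.42 and the adjusted p by limma from 0.0103 to 0.195, passing in 5 of the 18. Those 5 included quality weights, the replicate block and leaving out AP_OCA replicate 1, under which more of all genes also passed. The smallest difference came once each library's trend with transcript length and GC content was taken out, -0.42 (adjusted p = 0.130 by limma). Without AP_OCA replicate 4, the lowest of the 3, it was -0.54.

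Scap, which encodes the escort protein, stood at 42.2, 44.0 and 23.4 CPM in AP_OCA replicates 1, 3 and 4 and 16.4 in replicate 2, against 42.9, 53.6, 54.7 and 43.8 in AP. AP_OCA replicate 3 lay inside the AP range, replicate 1 just below it and replicates 2 and 4 well below, so the groups overlapped. Its log2 fold change was -0.45 ± 0.22 over 7 libraries and -0.71 ± 0.33 over 8. After removal of the length and GC trend its 7-library value was -0.10, and without AP_OCA replicate 4 it was -0.17. Insig2 stood at 9.11, 14 and 14.6 CPM in AP_OCA replicates 1, 3 and 4 and 6.92 in replicate 2, against 16.2, 17.9, 17.4 and 18.7 in AP. As for Srebf2, all AP_OCA libraries lay below all AP libraries. The log2 fold change of Insig2 was -0.47 ± 0.20 (adjusted p = 0.163 by limma) over 7 libraries and -0.66 ± 0.26 (adjusted p = 0.278) over 8, and -0.62 over 7 with the length and GC trend removed. Insig1, the partner whose transcription SREBP2 drives, gave another picture. It stood at 35.9, 27.8 and 23.6 CPM in AP_OCA replicates 1, 3 and 4, against 27.5, 24.9, 21.7 and 30.5 in AP, with overlap, and at 6.33 CPM in AP_OCA replicate 2. Its log2 fold change was 0.14 ± 0.20 over 7 libraries, with a 95% interval from -0.28 to 0.56. Over 8 libraries its sign turned, to -0.36 ± 0.46.

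Summed, the 4 sensing genes came to 119.8, 117.5 and 79.5 CPM in AP_OCA replicates 1, 3 and 4 and 55.9 in replicate 2, against 132.3, 142.7, 142.7 and 141.4 in AP. The AP_OCA sums all lay below the AP sums. Most of the AP sum, on average 139.8 CPM, came from Srebf2 (47.4) and Scap (48.75), whereas Insig1 was not lower over 7 libraries. Of all tested genes, 15.3% had groups that did not overlap over 8 libraries.

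The mevalonate genes showed no common direction. Hmgcs1, the synthase that commits acetoacetyl-CoA to the route, stood at 7.57, 10.2 and 7.13 CPM in AP_OCA replicates 1, 3 and 4 and 4.81 in replicate 2, against 10.2, 7.95, 6.90 and 8.58 in AP. The 3 AP_OCA values fell inside the AP range. Its log2 fold change was -0.02 ± 0.22 over 7 libraries, with a 95% interval from -0.49 to 0.45. Mvd, the decarboxylase that makes isopentenyl pyrophosphate, stood at 3.03, 2.66 and 1.87 CPM in AP_OCA replicates 1, 3 and 4 and 3.07 in replicate 2, against 3.61, 3.74, 4.39 and 4.43 in AP. Every AP_OCA library lay below every AP library, at -0.53 ± 0.23 over 7 libraries (adjusted p = 0.176 by limma) and -0.47 ± 0.22 over 8 (adjusted p = 0.321). The mevalonate kinase gene Mvk had -0.55 ± 0.35, and its lowest library, AP_OCA replicate 4 at 0.218 CPM, carried much of that value. Without that library Mvk stood at -0.06. Pmvk, the next kinase, had 0.25 ± 0.28, and Ggps1, which makes the geranylgeranyl donor for protein prenylation, had 0.23 ± 0.23. Over 8 libraries Mvk had -0.47 ± 0.37, Pmvk 0.73 ± 0.47 and Ggps1 0.53 ± 0.32.

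The other 3 genes of this stretch fell below the 1 CPM filter without AP_OCA replicate 2. Acat2, the cytosolic thiolase, passed the filter over 8 libraries only, through 3.41 CPM in AP_OCA replicate 2, and stood between 0.312 and 2.08 CPM in the other AP_OCA libraries and between 0.494 and 1.08 in AP. Idi1, the isomerase, stood between 0.304 and 0.985 CPM in AP_OCA replicates 1, 3 and 4, at 0.121 in replicate 2, and between 0.546 and 1.77 in AP. Fdps, the farnesyl pyrophosphate synthase, stood between 0.0603 and 0.640 CPM in the AP_OCA libraries and between 0.129 and 0.546 in AP, on the first 8 steps of the distribution in each library. Those low levels are uncertain. Of the 50-base words of the longest Fdps coding transcript, 86.4% also occur in transcripts of 8 other annotated genes, on either strand, and how the authors counted shared reads is not given in the sources used here. The share was 45.9% for Acat2, 30.7% for Fdft1 and 30.5% for Idi1. It was 13.6% for Hmgcs1, 13.1% for Scap, 11.8% for Ggps1, 11.3% for Lbr and under 5% for the others, with 0% for Srebf2, Msmo1, Insig2, Mvd and Sqle.

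Between squalene and cholesterol, the members with the largest values differed in both directions. Msmo1 (chromosome 8, 64718139 to 64733792, minus strand), the methylsterol oxidase gene, stood at 25.1, 21.3 and 31.4 CPM in AP_OCA replicates 1, 3 and 4, against 17.9, 14.96, 15.2 and 17.1 in AP. The 3 values lay above every AP library, whereas AP_OCA replicate 2, at 6.16 CPM, lay below them all. The log2 fold change was 0.63 ± 0.19 (adjusted p = 0.0756 by limma) over 7 libraries and 0.15 ± 0.43 (adjusted p = 0.868) over 8, and the adjusted p over 18 alternatives without AP_OCA replicate 2 ran from 0.0588 to 0.201. Sc5d (chromosome 9, 42251595 to 42264256, minus strand), a desaturase near the end of the route, stood at 8.40, 9.09 and 16.0 CPM in AP_OCA replicates 1, 3 and 4 and 5.50 in replicate 2, against 7.36, 6.47, 5.07 and 7.11 in AP. The 3 values again lay above AP and replicate 2 lay inside the AP range. Sc5d had 0.66 ± 0.25 over 7 libraries (adjusted p = 0.122 by limma), 0.44 ± 0.30 over 8, and 0.39 over 7 without AP_OCA replicate 4, its highest library. Fdft1, the squalene synthase that draws farnesyl units into sterols, averaged 29.9 ± 8.16 CPM in AP_OCA replicates 1, 3 and 4 and 21.7 ± 4.21 in AP, with overlap. Fdft1 had 0.43 ± 0.22 over 7 libraries, 0.60 with the length and GC trend removed, and -0.04 ± 0.44 over 8.

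Sqle, the squalene epoxidase and an oxygen-dependent control point of the route, stood at 8.26, 8.18 and 8.51 CPM in AP_OCA replicates 1, 3 and 4 and 3.16 in replicate 2, against 9.84, 8.38, 12.2 and 10.1 in AP. AP replicate 2 lay inside the AP_OCA range, so the groups overlapped, at -0.25 ± 0.20 over 7 libraries and -0.54 ± 0.30 over 8. Lss, which closes the sterol rings, had -0.61 ± 0.30, and -0.23 without AP_OCA replicate 4, where it was lowest at 0.725 CPM. Cyp51, the lanosterol demethylase, had 0.01 ± 0.21, with a 95% interval from -0.44 to 0.46. Lbr, an inner nuclear membrane protein that is also a sterol reductase, stood at 2.79, 2.66 and 2.54 CPM in AP_OCA replicates 1, 3 and 4, below the 3.07 to 4.69 of AP, and at 13.9 in AP_OCA replicate 2. Its value over 7 libraries was -0.44 ± 0.23 (adjusted p = 0.238 by limma), and 0.06 ± 0.46 over 8. Tm7sf2, the other reductase of that step, had -0.37 ± 0.32, and Dhcr7, a reductase of the last steps, had -0.27 ± 0.29. Nsdhl, which follows Msmo1, had 0.18 ± 0.27, and the isomerase gene Ebp had 0.03 ± 0.29. Over 8 libraries Lss had -0.63 ± 0.30, Tm7sf2 -0.42 ± 0.33, Dhcr7 -0.41 ± 0.31 and Nsdhl 0.38 ± 0.30. Hsd17b7, a ketoreductase, stayed below the filter, between 0.312 and 1.17 CPM in the AP_OCA libraries and between 0.494 and 0.770 in AP. Summed over the 12 genes of this stretch, AP_OCA replicates 1, 3 and 4 had 86.3 to 115.8 CPM and replicate 2 had 60.5, against 76.6 to 95.2 in AP.

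**Figure D2:**
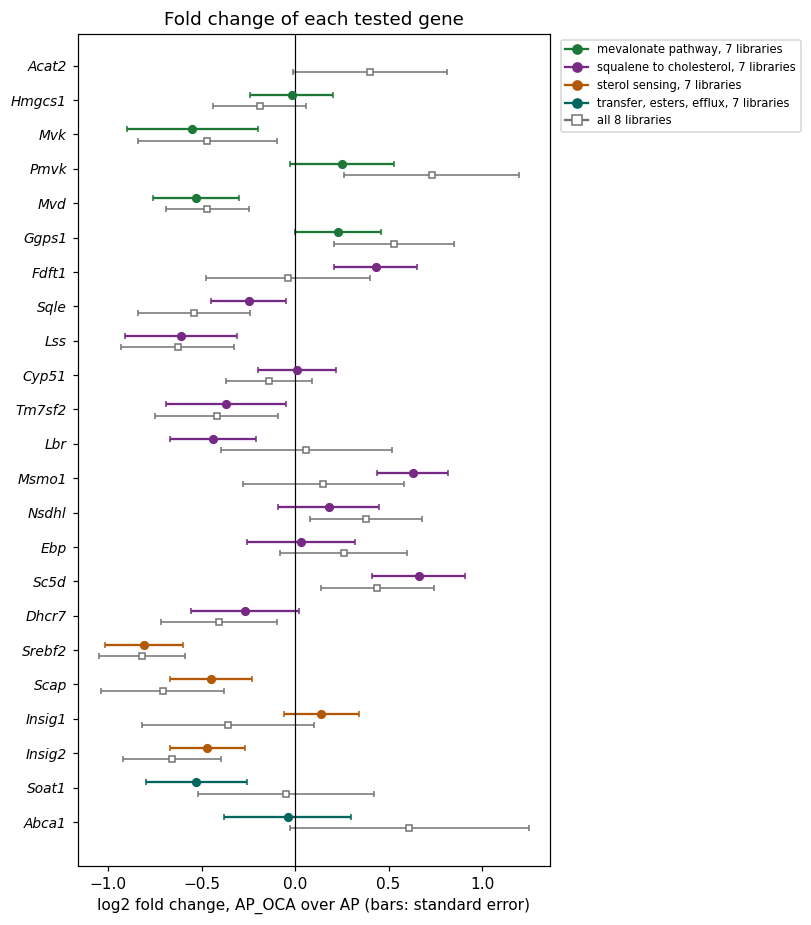
Log2 fold change of AP_OCA over AP (horizontal axis) for the 23 genes that were tested, with standard errors. Filled circles, coloured by role, leave out AP_OCA replicate 2 and open squares use all 8 libraries. Srebf2 sits at -0.81 and -0.82, whereas Msmo1 is at 0.63 without that library and 0.15 with it.

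Of the genes that handle finished cholesterol, Soat1, which esterifies it, stood at 2.55, 1.56 and 1.52 CPM in AP_OCA replicates 1, 3 and 4, against 2.49, 4.30, 2.17 and 3.88 in AP, with overlap. Its value was -0.53 ± 0.27 over 7 libraries. In AP_OCA replicate 2 it stood at 9.84 CPM, and over 8 libraries the value was -0.05 ± 0.47. Abca1, an exporter that LXR induces, stood at 4.59, 5.66 and 2.85 CPM in AP_OCA replicates 1, 3 and 4, against 5.07, 5.47, 1.78 and 6.79 in AP. The groups overlapped fully, at -0.04 ± 0.34 over 7 libraries, while AP_OCA replicate 2 stood at 31.5 CPM and brought the 8-library value to 0.61 ± 0.64. Stard4, a sterol transfer protein gene under SREBP2, was low, at 0.985 and 0.811 CPM in AP_OCA replicates 1 and 4, 2.55 in replicate 2 and 0.314 to 0.972 in AP. It was listed at 0 in AP_OCA replicate 3, where a count of 0 allows up to 0.312 CPM (3 counts, counting error only).

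AP_OCA replicate 2 was above all other libraries for 8 of the 23 genes tested over 8 libraries and below all for 9, where the shares of all tested genes were 32.5% and 36.9%. Acat2 is among the 8 and passed the filter only through that library, a filter that the shares of all genes also carry. Of the 22 genes tested without that library, it was above all for 7 and below all for 9. The gap exceeded 2-fold on the CPM + 1 scale upward for 5 (21.7%, against 12.3% of all) and downward for 4 (17.4%, against 14.8%). Those upward were Abca1, Pmvk, Lbr, Ggps1 and Soat1, and those downward were Insig1, Fdft1, Sqle and Msmo1. Abca1 lay 2.59 log2 units above the AP mean there, and Insig1 differed from it by -1.88 log2 units. The macrophage, lymphocyte and adipocyte marker sums given above were highest in the same library. Bulk values cannot tell apart a different mix of cells and a different level per cell, and the part of those cells in the values of AP_OCA replicate 2 was not tested.

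**Figure D3:**
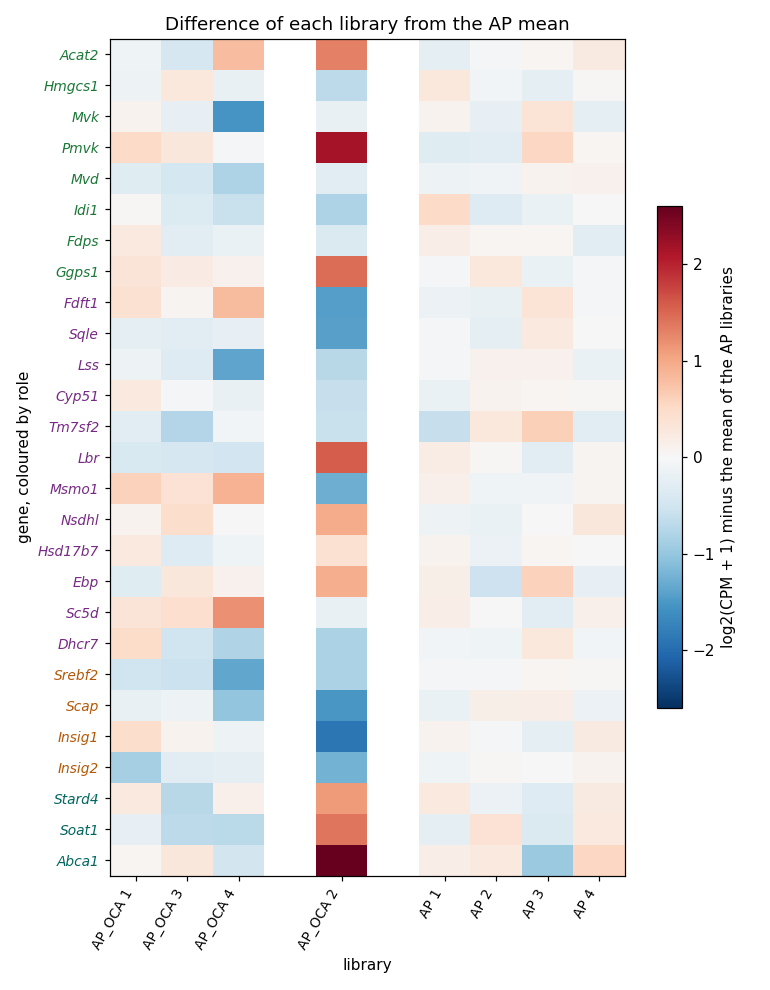
Difference of each library from the mean of the 4 AP libraries, on the log2(CPM + 1) scale, for the 27 genes (rows, coloured by role), with AP_OCA replicate 2 set apart from AP_OCA replicates 1, 3 and 4. Red is higher and blue is lower than the AP mean. Abca1 (2.59) and Insig1 (-1.88) mark the ends of the scale in AP_OCA replicate 2, and Srebf2 is blue in every AP_OCA library.

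The fold changes of the set followed the base composition of the transcripts, as those of all genes did. Over the 22 genes tested without AP_OCA replicate 2, Spearman's rho of the log2 fold change with GC content was -0.475, against -0.365 over 10839 genes with an annotation. These correlations are across genes of the same libraries, which are not independent. Srebf2 transcripts have 57.1% GC and those of Mvd 59.2%, against 44.1% for Msmo1 and 44.0% for Sc5d. With each library's trend with length and GC content removed, rho over the 22 genes was -0.163. Srebf2 then had -0.42 ± 0.15, Msmo1 0.51 ± 0.17, Sc5d 0.50 ± 0.21, Fdft1 0.60 ± 0.20 and Insig2 -0.62 ± 0.18, and no gene of the set passed. Mvd changed little, to -0.48 ± 0.21 from -0.53. Some sums of cell markers also differed between the groups in the same 7 libraries. Endothelial markers summed to 19.96 to 35.9 CPM in AP_OCA replicates 1, 3 and 4 and 37.6 to 52.3 in AP, stellate and fibroblast markers to 102.9 to 162 and 166 to 230.5, duct markers to 262.5 to 312.5 and 136 to 215, and acinar markers to 292700 to 307000 and 311600 to 321000. None of these pairs of sums overlapped, whereas the macrophage and myeloid, lymphocyte, adipocyte and islet sums did overlap between the groups. Of all tested genes, 23.2% had groups that did not overlap. Single markers did not all follow their sum. The endothelial marker Egfl7 stood at 4.24 to 7.87 CPM in those AP_OCA libraries and 3.11 to 3.97 in AP, the fibroblast marker Dcn at 37.6 to 48.1 and 17.1 to 43.4, and the duct marker Sox9 at 6.72 to 13.2 and 8.38 to 14.9. Of the acinar markers, Cel stood at 19400 to 27000 and 33380 to 36360. The markers' part in the values of the cholesterol genes was not tested.

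**Figure D4:**
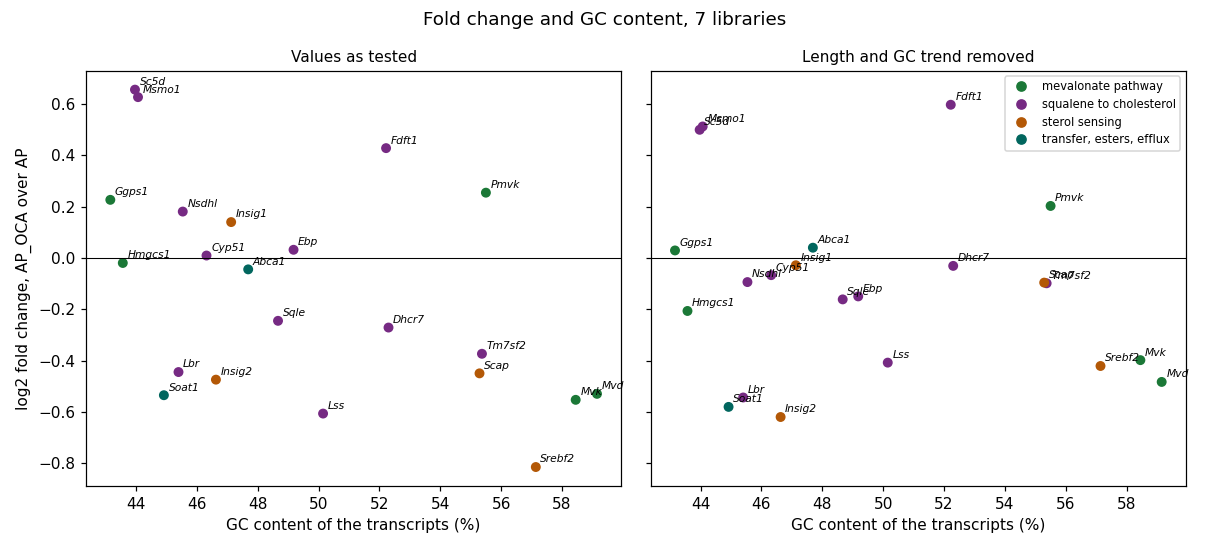
Log2 fold change of AP_OCA over AP without AP_OCA replicate 2 (vertical axis) against the GC content of the transcripts in percent, for 22 genes, as tested (left) and with each library's trend with length and GC content removed (right). The slope from Sc5d and Msmo1 at the upper left to Srebf2 at the lower right (rho -0.475) is shallower on the right (rho -0.163).

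Genes around the set were looked at through 2 further lists. Of 18 genes of sterol uptake, lysosomal export and transfer, 16 were tested without AP_OCA replicate 2, and 1 rose, 1 fell and 14 did not pass (median 0.17), where 0.854% of all genes rose and 1.59% fell. Soat2, the second cholesterol esterification enzyme, rose. It stood at 56.6, 39.0 and 56.0 CPM in AP_OCA replicates 1, 3 and 4, against 19.5, 21.8, 19.6 and 37.2 in AP, so that the groups did not overlap. AP_OCA replicate 2, at 8.53 CPM, lay below all of them. Soat2 had 1.04 ± 0.24 (adjusted p = 0.0409 by limma) over 7 libraries and 0.44 ± 0.55 (adjusted p = 0.682) over 8, and passed in 8 of 18 alternatives over 7 (adjusted p 0.0156 to 0.194). Lrp1, an endocytic receptor for lipoprotein remnants, fell by 0.82 ± 0.20 on the log2 scale (adjusted p = 0.0490 by limma), at 11.7, 11.1 and 8.86 CPM in AP_OCA replicates 1, 3 and 4, against 24.8, 17.5, 17.5 and 18.3 in AP. It passed in 7 of 18 alternatives (adjusted p 0.00509 to 0.182), had -0.41 with the length and GC trend removed, and -0.50 ± 0.33 (adjusted p = 0.446) over 8 libraries, where AP_OCA replicate 2 stood at 27.02 CPM. The summed stellate and fibroblast markers, of cells that also express Lrp1, were lower in the same 3 AP_OCA libraries. Among them Dcn, Lum and Pdgfra overlapped between the groups, and the part of those cells in this value was not tested. Over 8 libraries 0 of the 16 passed by limma, with 3 at an unadjusted p under 0.05 (18.8%, near the 16.2% of all genes).

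Of 20 genes of SREBP processing and sterol-regulated degradation, 19 were tested and 0 passed in either comparison by limma (median 0.01 over 7 libraries), with 5 at an unadjusted p under 0.05 in each (26.3%, against 25.7% of all genes over 7 libraries and 16.2% over 8). Among the lowest unadjusted p were those of Nploc4, a cofactor in the extraction of proteins from the membrane of the endoplasmic reticulum (-0.56 ± 0.21), and Mbtps1, a Golgi protease that cleaves SREBPs (-0.43 ± 0.18). Neither passed. Mbtps1 stood at 28.4, 26.9 and 19.4 CPM in AP_OCA replicates 1, 3 and 4 and 20.9 in replicate 2, below the 31.2 to 34.6 of AP in all 4.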

How the data were processed

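Primary acinar cells gave 8 libraries, grouped and numbered by their titles. The authors' deposited table holds log2 values. Its lowest value is the log2 of 0.01 in every column and its highest value is shared, so the values were read as quantile normalised counts plus 0.01. Per the submitters' processing notes the build was mm10; aligner, counter and annotation are not given in the sources used here. Of 54427 genes, 30191 were at 0 in every library. Values were taken off the log scale, freed of the offset and scaled to 1000000 per library (CPM). AP_OCA was tested against AP on log2(CPM + 1) with limma 3.58.1 (R 4.3.3; variance trend, robust moderation) over genes averaging 1 CPM or more, called at an adjusted p of 0.05. The procedure was tested on simulated data with independent normal noise for each gene. Those data held no trend with GC content and no library that stood apart, so they do not bear on either. P-values measure the spread between these samples, which may be technical. Depth is unknown, and a count of 3 lay at 0.206 to 0.314 CPM in 7 libraries and 0.000455 in AP_OCA replicate 2. Coordinates, exon lengths and GC content are from GENCODE M21 (53749 symbols matched), and promoters from RefSeq.

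The members and lists were chosen with earlier results of these data known, and they do not hold every gene of the pathway. All 27 members are named, and from the neighbouring lists those that passed, otherwise the 3 with the lowest p, some of which are not reported here. Alternatives were pseudocounts of 0.1 and 5 CPM, no filter, a minimum of 5 CPM, median centring, a second quantile normalisation, limma without trend, library quality weights, a replicate block, the deposited log2 values unscaled, removal of each library's trend with length and GC content, and each library left out.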

Additional observations from a re-analysis of the deposited data

Results flagged for a closer look

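Within a group of 4 libraries, a library was picked out when its gap to the nearest other, divided by the group's range, exceeded Dixon's 95% critical value. Of 54 groups looked at (27 genes in AP_OCA and in AP), 4 met this, and chance picks about 1 in 20 groups. AP_OCA replicate 2 was the library in 3 of the 4. Lbr stood at 13.9 CPM there, against 2.54 to 2.79 in the other AP_OCA libraries. Ggps1 stood at 10.7 CPM there, against 3.65 to 4.42. Sqle stood at 3.16 CPM there, against 8.18 to 8.5. The 4th was Dhcr7 in AP replicate 3, at 7.18 CPM against 5.31 to 5.45 in the other AP libraries.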

How the results depend on the processing

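With 8 libraries, library quality weights gave 1052 of 11311 genes and 1 of 23 members, Srebf2, and 0 genes passed under the other settings that kept all libraries. Leaving out each library gave 0 to 266 genes and no member (0 to 0), the 266 without AP_OCA replicate 2. With 7 libraries, against 266 genes, a pseudocount of 0.1 gave 156, no filter 0, no trend 14, quality weights 1675 and the deposited log2 values 113, and leaving out each library gave 7 to 973 (973 without AP_OCA replicate 1, 14 without AP_OCA replicate 3, 119 without AP_OCA replicate 4, and 7 to 12 without any single AP library). Of members, 1 passed with a pseudocount of 5, with a minimum of 5 CPM, with quality weights and without AP_OCA replicate 1, in each case Srebf2, and leaving out each library gave 0 to 1. Over all genes, 1675 passed with quality weights and 973 without AP_OCA replicate 1, against 266 of 10894 (2.44%) as first tested. With the replicate block 559 genes and 1 member, Srebf2, passed. The shared numbers do not show a pairing. With 8 libraries, the deviations of same-numbered libraries correlated at -0.166, 0.0338, 0.116 and -0.0257, and those of other pairs at -0.1745 to 0.1697. Those deviations are from an AP_OCA mean that includes replicate 2. Without it, same-numbered libraries had -0.0553, 0.0528 and -0.0715, and other pairs -0.1633 to 0.1169.

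The direction of 9 members with 8 libraries, and of 6 with 7, turned under some settings; none of them passed under any setting. With 8 libraries, quality weights gave -0.18 for Acat2, 0.03 for Hmgcs1, 0.30 for Fdft1, 0.04 for Cyp51, -0.48 for Lbr, 0.09 for Insig1 and -0.05 for Abca1. A pseudocount of 5 gave 0.0025 for Fdft1 and 0.03 for Soat1, and removal of the length and GC trend gave 0.15 for Fdft1 and -0.03 for Lbr. Leaving out each library gave -0.32 to 0.43 for Fdft1, -0.28 to 0.01 for Cyp51, -0.44 to 0.25 for Lbr, -0.10 to 0.63 for Msmo1, -0.64 to 0.14 for Insig1, -0.53 to 0.17 for Soat1 and -0.04 to 0.98 for Abca1. With 7 libraries, quality weights gave 0.08 for Hmgcs1. The replicate block gave -0.15 for Ebp and 0.04 for Abca1, and removal of the trend gave -0.07 for Cyp51, -0.09 for Nsdhl, -0.15 for Ebp, -0.03 for Insig1 and 0.04 for Abca1. Leaving out each library gave -0.16 to 0.07 for Hmgcs1, -0.12 to 0.11 for Cyp51, -0.15 to 0.23 for Ebp, -0.02 to 0.28 for Insig1 and -0.36 to 0.18 for Abca1. The cause of these turns was not tested.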

Other observations

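LXR, the oxysterol receptor, and its targets answer to surplus sterol. A list of 13 genes held LXR, some targets and the partner receptor genes Rxra and Rxrb, but not Abca1, a member of the set above. Of the 13, 10 were tested without AP_OCA replicate 2 and 0 passed in either comparison. The median log2 fold change over 7 libraries was -0.19, with an unadjusted p by limma under 0.05 for 2 (20%, against 25.7% of all genes). Values were positive for 2, Apoe and Smpdl3a (0.22 each), and negative for 8, Rxra and Rxrb among them. Of all tested genes, 50% had a positive value. The exporter gene Abcg1 stood at 3.31, 1.14 and 1.87 CPM in AP_OCA replicates 1, 3 and 4, against 5.50, 4.15, 3.97 and 4.74 in AP, below every AP library (-0.90 ± 0.27, adjusted p = 0.0734 by limma). Mylip, a ubiquitin ligase for lipoprotein receptors, stood at 2.62, 2.46 and 0.725 CPM there, against 3.46 to 4.56 in AP (-0.86 ± 0.29, adjusted p = 0.0947), and Arl4c had -0.47 ± 0.27. In AP_OCA replicate 2 Abcg1 stood at 23.1, Mylip at 18.9 and Arl4c at 31.7 CPM. Over 8 libraries Abcg1 and Mylip had -0.15 each and Arl4c had 0.54.

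Of 18 genes of the isoprenoid branch, which uses farnesyl units for prenylation, dolichol and ubiquinone, 0 passed in either comparison (median 0.17 over 7 libraries, unadjusted p under 0.05 for 4, or 22.2%, against 25.7% of all genes). Nus1, a subunit of the dolichol-making enzyme, stood at 29.7, 28.4 and 37.5 CPM in AP_OCA replicates 1, 3 and 4, above the 17.6 to 24.2 of AP (0.54 ± 0.19, adjusted p = 0.102 by limma). Rabggtb, a subunit of the Rab prenylating enzyme, had 0.48 ± 0.19, also above every AP library.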
